A study of Mus musculus with 19 samples.

Results

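The comparison is between 8 mouse medulloblastomas from animals given 40 mg/kg of NVP-LDE225 and 3 from animals given vehicle, which together are 11 of the 19 arrays in the series. Membership follows the description given for each sample, where labels number the treated tumours 1 to 8 and the vehicle tumours 1 to 3. The remaining 8 arrays come from tumours treated at 160 mg/kg and are used here to show where the lower dose differs. All tumours carry the genotype Ptch+/-p53-/- and were grown from dissociated tumour cells placed under the skin of the right flank of nude (nu/nu) mice, a strain without mature T cells. Dosing began about 10 days after implantation, in groups matched for mean tumour volume. In the tumour status label the vehicle tumours are sensitive and all treated tumours are resistant, so drug treatment and resistance form a single contrast that cannot be told apart. The age of the mice, the vehicle, the schedule and the length of dosing are not given in the labels, nor is it said that each array is a separate animal. The p-values therefore measure the spread between these samples, which may be partly technical.

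NVP-LDE225 (sonidegib) blocks Smoothened, the membrane protein that carries the Hedgehog signal. Without ligand the receptor Ptch1 holds Smoothened inactive. When that brake is lost, Gli2 enters the nucleus as an activator and switches on target genes, among them Gli1, Ptch1, Hhip and Ccnd1, while Sufu restrains the Gli factors further down. In the developing cerebellum this signal keeps granule neuron precursors dividing, and tumours of Ptch mutant mice are thought to come from these cells, which otherwise stop dividing and mature into neurons.

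Expression was read as MAS5 signal, a linear intensity for each probe set. Array medians ran from 33.5 to 40.8 in 10 of the 11 arrays and reached 49.7 in vehicle tumour 3, which also correlated least with the other arrays (mean r 0.927). Signals of the granule neuron lineage genes Atoh1, Zic1 and Sox11 were present in every tumour. They ran from 352.6 to 1422 for Atoh1, from 3233 to 5445 for Zic1 and from 1364 to 3341 for Sox11. The cells of the host were visible as well. The summed signal of 22 skeletal muscle markers ran from 1827 to 5470 in vehicle tumours and from 457.5 to 27680 at 40 mg/kg, with the highest sums in treated tumours 5 and 6. In bulk tissue fewer cells of a type and less RNA per cell cannot be told apart.

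At 40 mg/kg, 230 genes rose and 114 fell against vehicle (limma, Benjamini-Hochberg adjusted p under 0.05, 1 probe set per gene). These are 1.71% and 0.847% of the 13454 genes tested, and the median log2 change over all of these genes was -0.05. Without regard to the test 43.8% of genes were higher and 56.2% lower. All 8 treated tumours lay above every vehicle signal in 5.05% of genes and below every vehicle signal in 6.29%. Rises and falls are ranked below among called genes whose mean signal was at least 10 in the lower group (vehicle for rises, 40 mg/kg for falls). By this rank the first 6 rises were Fabp7, Cntn2, Nalcn, Stmn2, Cldn11 and Snap91, and the first 6 falls were Ifit1, Oasl1, Oasl2, Hs3st3b1, Slfn8 and Gbp7. On the level of probe sets, 668 of 31143 (2.14%) were called, 472 higher and 196 lower (70.7% higher). Subtracting array medians taken over all probe sets, an alternative chosen after seeing the data, gave 454 higher and 74 lower (86% higher). The number rests on the 3 vehicle tumours. It was 194 without vehicle tumour 1, 194 without vehicle tumour 2 and 120 without vehicle tumour 3, and 443, 418 and 439 without treated tumours 1, 2 and 7. On the gene level 82, 61 and 54 rose and 13, 16 and 9 fell without vehicle tumours 1, 2 and 3, and 58, 50, 56 and 52 fell without treated tumours 1, 2, 5 and 7.

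Fabp7 binds fatty acids in radial glia and other immature neural cells and had the largest rise by this rank. Its signals were 55.2, 62.1 and 45.4 in the vehicle tumours and ran from 242.1 to 1622 at 40 mg/kg, with a median of 925.4. The groups did not overlap, and tumours 3, 5 and 8 were the lowest of the treated group. The log2 change was 3.69 (SE 0.85, n = 8 and 3; limma adjusted p = 0.0268). Cntn2, an adhesion molecule on the axons of young granule neurons, had signals of 45.1, 34.3 and 35.5 under vehicle and from 189 to 913.6 at 40 mg/kg, with a median of 382.2. The lowest treated tumour was over 4 times the highest vehicle tumour in signal, and the log2 change was 3.38 (SE 0.41, limma adjusted p = 0.000601). Snap91, an assembly protein of synaptic vesicles, had signals of 56.2, 40.8 and 54.8 against a range from 212.8 to 1005 (log2 change 3.09, SE 0.42, limma adjusted p = 0.00126). Nalcn, a sodium leak channel that sets the resting potential of neurons, had signals of 34.5, 46 and 52 under vehicle and from 356.6 to 841.7 in 7 of the treated tumours, with tumour 6 lower at 127.1. Its log2 change was 3.16 (SE 0.49, limma adjusted p = 0.00301). Kcnj3, a potassium channel opened by G proteins, rose by 2.26 (SE 0.26, limma adjusted p = 0.000601), with signals of 24.3, 24.3 and 53.4 against a range from 93.6 to 242.2.

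**Figure D1:**
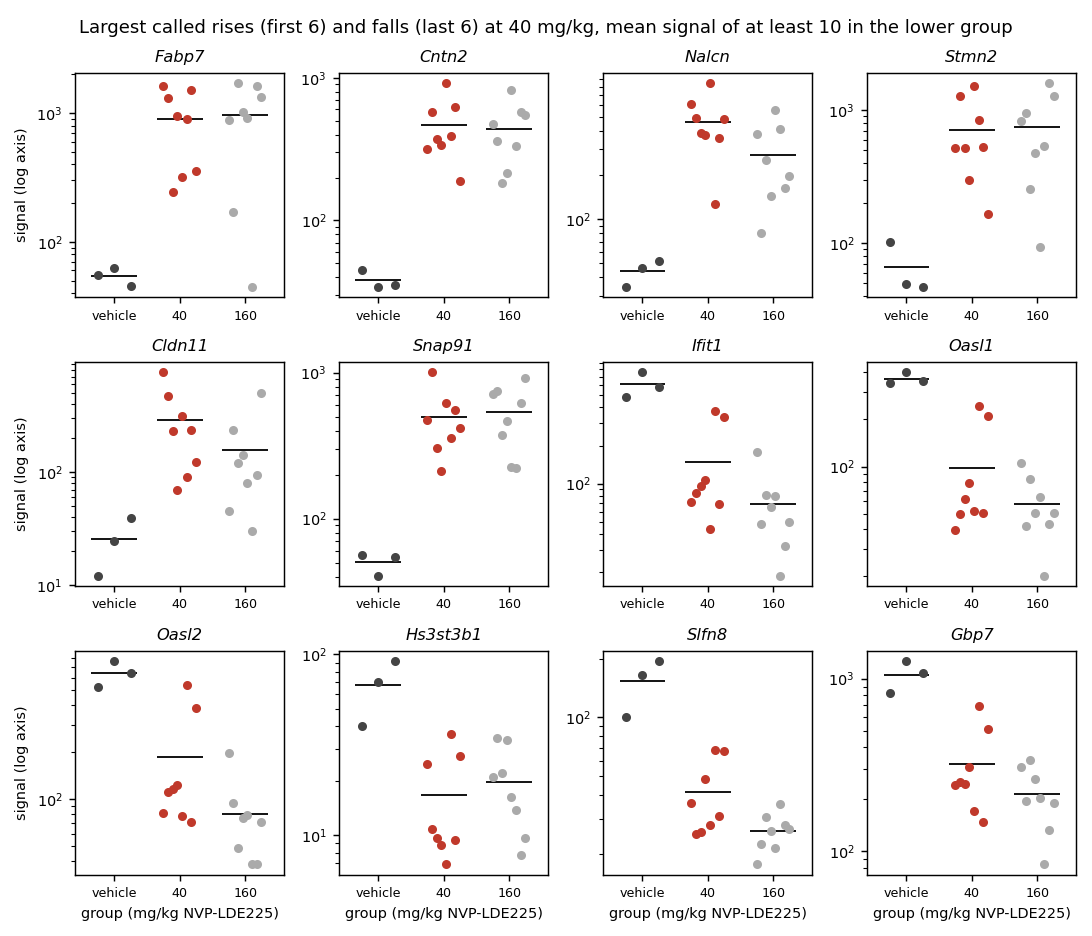
Signals of the 6 genes with the largest called rises and the 6 with the largest called falls, among genes with a mean signal of at least 10 in the lower group, by group, on a log axis. Points are tumours (3 vehicle, 8 at 40 mg/kg, 8 at 160 mg/kg), and lines are group means. All 8 tumours at 40 mg/kg lie above the vehicle tumours for the 6 rises, and the 2 points at 40 mg/kg nearest to vehicle for Ifit1, Oasl1 and Oasl2 are tumours 6 and 8.

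Stmn2 and Stmn4, regulators of microtubules in growing axons, rose by 3.15 (SE 0.69, limma adjusted p = 0.0196) and 2.75 (SE 0.60, limma adjusted p = 0.0194). Stmn4 had 1 vehicle signal of 4.7, in tumour 3, against 129.3 and 103.2, and without that tumour its log2 change was 1.41 with an adjusted p of 0.143. Slc17a6, the glutamate transporter of vesicles in young excitatory neurons, rose by 2.53 (limma adjusted p = 0.0144), and tumour 8 with 97.8 stood below the other treated tumours, which began at 303.9. Its call was lost without vehicle tumour 2 or 3. The neuronal tubulin Tubb4a (2.58), the phosphatase subunit Ppp2r2b (2.72) and the seizure-related protein Sez6l2 (2.53) were above all vehicle tumours in 8 of 8. Cyp1b1, an oxidizing enzyme that metabolises steroids and foreign compounds, rose by 2.46 (SE 0.60, limma adjusted p = 0.0360) with a wide spread, from 151.8 in tumour 6 to 1584 in tumour 4. Grb14, an adaptor that inhibits the insulin receptor, was measured near the pseudocount under vehicle (6.6, 8.3 and 1.7) and between 40.6 and 121.5 at 40 mg/kg (limma adjusted p = 0.00126), so no fold is given. Limch1, an actin-binding protein, had 1 of the 5 smallest p-values with a modest rise of 1.47 (SE 0.19, limma adjusted p = 0.00115).

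These calls were not equally stable. Cntn2, Snap91, Nalcn, Kcnj3, Tubb4a, Ppp2r2b, Sez6l2, Grb14 and Limch1 were called in all 11 fits that left out 1 array. Fabp7 and Stmn2 were called in 0 of the 3 fits without a vehicle tumour, where their adjusted p without vehicle tumour 3 were 0.142 and 0.128. Cyp1b1 was called in 0 of these 3, and its call was lost without treated tumours 1, 5 or 7 as well. Calls also differed between probe sets of a gene. Of the kept probe sets, 2 of 4 were called for Cntn2 and 1 of 2 each for Snap91 and Stmn2.

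Of 28 measured neuronal maturation genes, 7 rose and 0 fell, and 27 were higher. The median log2 change was 1.05, against -0.05 over all genes, where 1.71% rose. Besides Stmn2 and Stmn4, the members that rose were the microtubule protein Dcx of migrating neurons (1.07, limma adjusted p = 0.00702), Crmp1, which mediates semaphorin signals (1.07), the RNA-binding protein Celf4 (1.14), the reticulon Rtn1 (1.16) and Map2 of dendrites (0.50). Dcx signals were 603.7, 495.5 and 442.2 under vehicle and from 758.7 to 1787 at 40 mg/kg. Tumour 5 was far above the other treated tumours, which ended at 1074, and tumour 8 was the lowest. Those 7 calls became 3, 2 and 0 on leaving out vehicle tumours 1, 2 and 3, 4 without treated tumours 2 or 5, and 12 without treated tumour 4.

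Of 27 measured ion channel genes 7 rose (25.9%, against 1.71% of all genes) and 0 fell, with a median of 1.21 and 25 higher. Nalcn and Kcnj3 are described above. The others were Scn3a, a sodium channel of embryonic neurons that was near 0 under vehicle (2.3, 0.4 and 8.3, against 12.8 to 102.7 at 40 mg/kg), the potassium channel subunits Kcnd3 (1.40, limma adjusted p = 0.0190) and Kcnk1 (1.60), and the calcium channel subunits Cacna1c (1.24) and Cacna2d1 (0.58). Leaving out vehicle tumours 1, 2 and 3 gave 2, 2 and 3 calls, and the number was 4 without treated tumour 2 and 4 without tumours 5 and 6, the ones with the most muscle signal.

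Genes of axon guidance and adhesion rose in part, 6 of 39 measured (15.4%, against 1.71% of all genes). In this list 0 fell and the median was 0.20. The members that rose were Cntn2, its relatives Nrcam (1.53, limma adjusted p = 0.00697) and Nfasc (1.88), the guidance ligand Slit1 (2.05, limma adjusted p = 0.00902), the receptor Ephb1 (1.84, limma adjusted p = 0.00572) and the cadherin Fat2 of granule neurons, whose vehicle mean of 6.00 lies near the pseudocount. Slit1 signals were 54.4, 27.8 and 53.7 under vehicle and ran from 193.5 to 292.1 in 6 treated tumours, with tumours 6 and 8 lower at 65.4 and 106.9. The count was 2 without vehicle tumour 2 and 4 without vehicle tumour 3. Synaptic vesicle genes had a median of 0.44 with 2 of 28 that rose, Snap91 and Slc17a6 (1 without vehicle tumour 2 or 3). The vesicle GTPase Rab3a (0.69, adjusted p = 0.0791) and the dynamin Dnm1 (1.77, adjusted p = 0.110) did not pass limma's test, and Dnm1 reached 595.6 in tumour 2 against 140.5 or less in the others. Rab3a has 2 kept probe sets, and its other probe set was called. Transmitter receptor genes had a median of 0.33, and 0 of 16 were called by limma. The nicotinic receptor subunit Chrna3 had a log2 change of 1.13 (adjusted p = 0.111) and the GABA receptor Gabbr1 had 0.60 (adjusted p = 0.174).

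Of 30 measured transcription factors and other genes of the granule neuron lineage, 4 rose and 0 fell, with a median of 0.12. The share that rose was 13.3%, against 1.71% of all genes. Sox11, a factor of newborn neurons, had signals of 1960, 1789 and 1364 under vehicle and from 2638 to 3341 at 40 mg/kg, with no overlap and a narrow treated range (log2 change 0.80, SE 0.12, limma adjusted p = 0.00294). Nhlh2, a helix-loop-helix factor of early neurons, had signals between 777.2 and 804.2 under vehicle and from 1338 to 1869 at 40 mg/kg (log2 change 0.90, limma adjusted p = 0.00708). Neurod1, which drives granule neurons towards maturity, rose by 1.14 (limma adjusted p = 0.0383), from 1255 to 1865 under vehicle to between 2124 and 5490. Zic1, present in granule cells at all stages, rose by 0.50 (limma adjusted p = 0.0437). Sox11 was called in all 11 fits without 1 array, Nhlh2 in 10, Neurod1 in 3 and Zic1 in 2. On leaving out vehicle tumours 1, 2 and 3 the list held 2, 2 and 1 calls, and 2 without treated tumours 1, 2, 6 or 7. For Atoh1, which keeps precursors dividing, the value was -0.57 on the log2 scale (SE 0.79, limma adjusted p = 0.723), and its lowest signal was 352.6 in tumour 5.

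**Figure D2:**
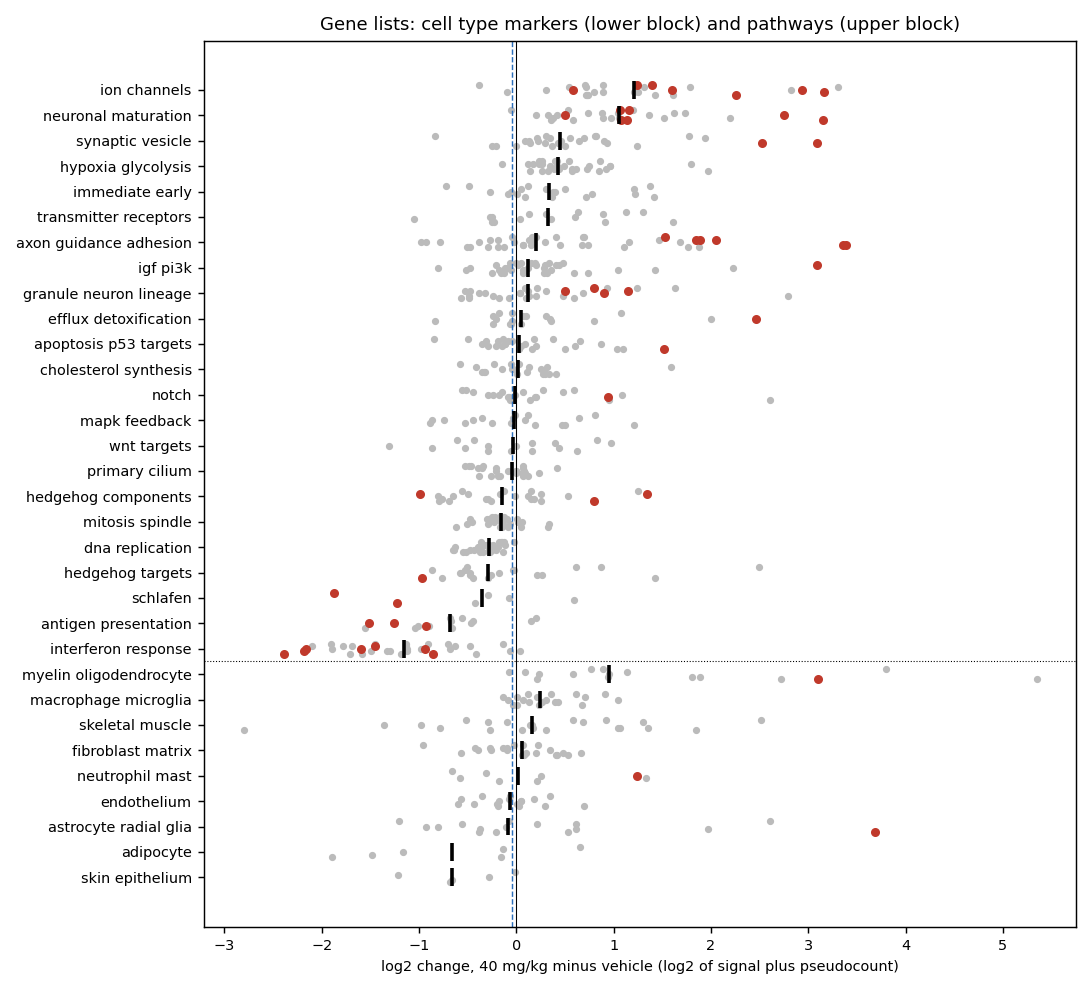
Log2 change at 40 mg/kg against vehicle for each measured gene of the lists with at least 5 measured genes. Red points passed limma's test and grey points did not, black bars are list medians, the dashed line is the median of all genes (-0.05), and the dotted line separates cell type markers (below) from pathways (above). Ion channel and neuronal maturation genes have medians of 1.21 and 1.05, and interferon response genes lie at the other end with -1.16.

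Myelin and glial markers were high in some of the treated tumours. Of 16 measured oligodendrocyte and myelin markers 15 were higher, with a median of 0.95. Of all genes 43.8% were higher, 1.71% rose and 5.05% had all 8 treated tumours above vehicle. The summed signal of the 16 markers ran from 2250 to 2550 under vehicle and from 2265 to 13900 at 40 mg/kg. Only Cldn11, the tight junction protein of myelin, was called in this list (log2 change 3.10, SE 0.70, limma adjusted p = 0.0235). Its signals were 12.2, 24.8 and 39.6 against 70.3 to 768.1, and it was called in 0 of the 3 fits without a vehicle tumour. Mbp, a main protein of the myelin sheath, was close to 0 under vehicle (1.3, 14.9 and 5.9). It reached 4276, 5074, 1789 and 1352 in treated tumours 1, 2, 3 and 7 and lay between 21.2 and 86.4 in tumours 4, 5, 6 and 8. All 8 treated tumours were above vehicle, yet the spread among them left the log2 change of 5.35 with an SE of 1.59 and an adjusted p of 0.0793. Tumours 1, 2 and 3 also had the highest signals of Mag and Mobp, which are proteins of mature myelin, and tumours 1, 2, 3 and 7 the highest of Cnp (2559, 3255, 846.8 and 1977, against 234.7 to 332.5 under vehicle and 509.2 or less in the other treated tumours). Gpr17, a receptor of immature oligodendrocytes, was at most 2.3 under vehicle and reached 1129 in tumour 7, whereas tumours 4, 5 and 8 stayed at 2.2 or less. Olig2, a factor of the lineage that is also made by precursors, was present under vehicle (354.1 to 452.4) and ran from 55.3 to 1070 at 40 mg/kg. Without tumours 5 and 6 the list had 3 called members. The neuronal maturation list mean was above the vehicle mean by 1.21, 1.51, 1.11 and 1.27 in tumours 1, 2, 3 and 7, which had the most Mbp. In tumours 4, 5, 6 and 8 it was above by 0.52, 1.39, 0.945 and 0.58. Whether the cells that make these myelin genes have a part in the neuronal rises was not tested.

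Astrocyte and radial glia markers did not share a direction. Of 16 measured 7 were higher, with a median of -0.09, and only Fabp7 was called. Of all genes 43.8% were higher and 1.71% rose. In this list 3 genes had all 8 treated tumours below vehicle (18.75%, against 6.29% of all genes). Another 2 had all 8 above vehicle (12.5%, against 5.05%). The gap junction gene Gja1 and the glutamate transporter Slc1a2 lay under every vehicle signal in 8 of 8 treated tumours (log2 changes -1.21 and -0.81, adjusted p = 0.0940 and 0.137, limma), and the aldolase Aldoc had 1.97 (adjusted p = 0.0818).

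Several genes induced by interferon were among the falls. In cells, interferon activates a complex that contains Irf9 and binds a repeated GAAA element in the promoters of antiviral genes. This list had 34 measured members, of which 7 fell, 0 rose and 33 were lower, and 12 had 8 of 8 treated tumours under the lowest vehicle signal. The median log2 change was -1.16, while of all genes 0.847% fell and 6.29% had all 8 treated tumours under vehicle. Ifit1, which binds foreign RNA, had signals of 482.6, 759.9 and 580.2 under vehicle. It was between 43.7 and 106.3 in treated tumours 1 to 5 and 7, and 376.5 and 338.3 in tumours 6 and 8. All 8 lay below the vehicle tumours, with tumours 6 and 8 close to them, and the log2 change was -2.39 (SE 0.57, limma adjusted p = 0.0323). Oasl1 and Oasl2, relatives of the RNA-sensing oligoadenylate synthetases, changed by -2.18 (limma adjusted p = 0.0208) and -2.16 (limma adjusted p = 0.0361). Oasl2 in tumour 6 (536.8) overlapped the vehicle range of 520.1 to 765.5. Irf9, the DNA-binding subunit of the interferon complex, changed by -0.86 (limma adjusted p = 0.0385), the RNA sensor Ddx58 by -0.94 (limma adjusted p = 0.0271), Ifi35 by -1.60 (limma adjusted p = 0.0177) and the chaperone Rtp4 by -1.46 (limma adjusted p = 0.0268). Ddx58 has 3 kept probe sets and 1 of them was called.

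Outside the list, 2 further genes with antiviral roles were among the 12 largest falls by the same rank. The guanylate-binding protein Gbp7 had signals of 828.3, 1265 and 1076 under vehicle against a median of 248.4 at 40 mg/kg (log2 change -1.87, limma adjusted p = 0.0190). Ifitm3, which blocks virus entry at membranes, changed by -1.58 (limma adjusted p = 0.0128). In both genes treated tumours 6 and 8 were again the highest, at 696.6 and 508.5 for Gbp7 and 1359 and 1058 for Ifitm3. The call of Gbp7 was lost without any 1 of the vehicle tumours and that of Ifitm3 without vehicle tumour 2 or 3.

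Antigen processing genes had 3 falls among 15 measured (20%, against 0.847% of all genes), 0 rises and a median of -0.68. The immunoproteasome subunit Psmb10 changed by -1.26 (limma adjusted p = 0.0228), the peptide loading factor Tapbp by -0.93 (limma adjusted p = 0.0289) and Erap1, which trims peptides for class I molecules, by -1.51 (limma adjusted p = 0.0268). Psme1, an activator of the proteasome, had -0.67 and an adjusted p of 0.0706. Of 6 measured Schlafen genes, which are interferon-inducible regulators of growth and of RNA, 2 fell, with a list median of -0.36. Only Slfn8 was called without any 1 of the vehicle tumours. Slfn8 had signals of 100.3, 164.5 and 194.6 under vehicle and from 25.3 to 67.6 at 40 mg/kg, without overlap (log2 change -1.88, SE 0.29, limma adjusted p = 0.00320). Slfn8 was called in all 11 fits without 1 array. Slfn9 fell by 1.23 (limma adjusted p = 0.0146) with signals of 277.5 to 310.6 against 95.9 to 172.5. Tapbp, Erap1 and Slfn9 have 2 kept probe sets each, of which 1 was called.

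The number of interferon calls changed when single tumours were left out. Of the 7 calls, leaving out vehicle tumours 1, 2 and 3 gave 2, 0 and 0. The list median then moved little, to -1.30, -1.12 and -1.13 against -1.16. There were 4 calls without treated tumours 1, 2, 5 or 7, 12 without treated tumour 6 or 8, and 11 without tumours 5 and 6. Ifit1 and Oasl2 were called in 0 of the 3 fits without a vehicle tumour, and their calls were also lost without treated tumours 1, 2, 5 or 7, and that of Oasl2 without tumour 3. Antigen processing genes had 0 calls by limma without any 1 of the vehicle tumours, 2 without treated tumours 1, 2, 5 or 7, and 5 without treated tumour 6. The list mean of interferon genes was lower than the vehicle mean by 1.29 to 1.65 on the log2 scale in tumours 1 to 5 and 7, and the values were -0.26 in tumour 6 and -0.42 in tumour 8. Macrophage and microglia markers, a host source of such genes, had a median of 0.25 with 17 of 20 higher and 0 called by limma, and their summed signal ran from 2085 to 3589 under vehicle and from 1722 to 6213 at 40 mg/kg. Of the 13 lymphocyte markers listed, only Cd8a passed the filter on low values, with signals between 24.5 and 43.7 under vehicle and between 5.1 and 38.8 at 40 mg/kg. Their part in the falls was not tested.

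The promoters of 11 of the 12 fallen genes in the interferon, antigen processing and Schlafen lists were in the RefSeq table (GRCm38.p6, 250 bases before to 50 after each start). The motif, GAAA followed after any 2 letters by GAAA, was searched on both strands and was in those of 5: Ifit1, Ddx58, Erap1, Slfn8 and Slfn9. It is in 3.44% of all 32851 promoters of the same length, a share counted per promoter and not per gene. List members that did not fall were not searched, so this share cannot tell whether the motif goes with the falls. The sequences around it are shown for the 3 genes in which it lies wholly before the start. Capitals mark the motif, which on the strand of the gene reads TTTC, any 2 letters, TTTC. The Ifit1 stretch lies at chr19:34640765-34640833 on the plus strand and holds 2 copies. The Slfn8 and Slfn9 stretches lie on the minus strand, at chr11:83020829-83020878 and chr11:82991846-82991895, and the motif is the same 10 letters in both. A match describes these letters and not a bound site.
Ifit1: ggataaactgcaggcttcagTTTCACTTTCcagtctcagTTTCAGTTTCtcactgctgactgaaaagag
Slfn8: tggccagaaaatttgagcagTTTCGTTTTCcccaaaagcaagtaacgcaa
Slfn9: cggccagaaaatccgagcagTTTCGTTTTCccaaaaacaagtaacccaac

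Other falls of this rank were in genes of other functions. Atp10a, a lipid flippase of the plasma membrane, had signals of 60.4, 67.1 and 80.6 under vehicle and from 11.7 to 33.9 at 40 mg/kg (log2 change -1.67, SE 0.28, limma adjusted p = 0.00488). Tst, a mitochondrial sulfur transferase, had signals of 631.2, 797 and 696.6 against 150.7 to 474.4 (log2 change -1.53, SE 0.27, limma adjusted p = 0.00672). Both held in all 11 fits without 1 array. Hs3st3b1, which adds sulfate to heparan chains, changed by -1.99 (limma adjusted p = 0.0271) and the protocadherin Fat4 by -1.67 (limma adjusted p = 0.0268). Fat4 overlapped vehicle in tumour 7 (45.8, against 38.2 in vehicle tumour 1). The call of Hs3st3b1 was lost without any 1 of the vehicle tumours and that of Fat4 without vehicle tumour 2 or 3. Of the kept probe sets, 1 of 3 was called for Hs3st3b1 and 1 of 2 each for Atp10a and Fat4.

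Most Hedgehog target genes were not called. Of 21 measured targets 1 fell and 0 rose, with a median of -0.29, and 15 were lower. Over all genes 0.847% fell, 56.2% were lower and 6.29% had all 8 treated tumours under vehicle. The mean of the target list lay above every vehicle tumour in 4 of the 8 treated tumours and below every one in 2. The member that fell was Prom1, a membrane protein of stem and precursor cells (1196, 1381 and 1283 under vehicle against 517.3 to 1119, log2 change -0.97, SE 0.19, limma adjusted p = 0.0107), and its call was lost without vehicle tumour 2 or 3. Gli1, both an effector and the most used readout of the pathway, had signals between 320.3 and 338.1 under vehicle. At 40 mg/kg it was between 106 and 214.7 in tumours 1 to 6, below every vehicle tumour, and 598.2 and 2286 in tumours 7 and 8, above them. The log2 change of -0.45 (SE 0.83, limma adjusted p = 0.801) is thus a mean over tumours on both sides of vehicle. Ptch1 was lower than any vehicle tumour in 7 of 8 and above them at 2427 in tumour 8 (log2 change -0.48, adjusted p = 0.425), and Hhip, which binds and removes the ligand, was highest in tumour 8 as well (379.8, against 213.8 to 328.2 under vehicle). Ccnd1, a cyclin of the G1 phase, stayed under the vehicle range in 8 of 8 (1916 to 2676 against 2951 to 3414; log2 change -0.53, adjusted p = 0.160), as was Cdk6 (-0.57, adjusted p = 0.163). Mycn had -0.18 (adjusted p = 0.703) and Ccnd2 had 0.61 (adjusted p = 0.650), with signals from 252.6 in tumour 5 to 1796 in tumour 7.

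Among 24 measured components of the pathway 2 rose and 1 fell, with a median of -0.15. Of all genes 1.71% rose, 0.847% fell and 6.29% had all 8 treated tumours under vehicle. Gsk3b, a kinase that marks Gli proteins for processing, had signals of 815.3, 840.7 and 707.6 under vehicle and from 1129 to 1602 at 40 mg/kg (log2 change 0.80, SE 0.16, limma adjusted p = 0.0144). It has 6 kept probe sets and 1 of them was called. Arrb1, an arrestin, rose by 1.35 from low vehicle signals of 8.7 to 28.9 (limma adjusted p = 0.0194). Evc2, a ciliary protein that relays the signal below Smoothened, fell by 0.99 (150.7 to 200.8 under vehicle, 59.1 to 121.1 at 40 mg/kg, limma adjusted p = 0.0235). Gsk3b and Evc2 were called in 0 of the 3 fits without a vehicle tumour and Arrb1 in 1. Smo, the protein bound by the drug, had signals of 800.5, 749.1 and 713.1 under vehicle and from 337.9 to 640.5 at 40 mg/kg. The groups did not overlap, the log2 change was -0.65 (SE 0.20) and the adjusted p of 0.0835 missed the threshold. Another of its 2 probe sets was called. Sufu was also below vehicle in 8 of 8 (229.3 to 343.4 against 362.4 to 378.3; log2 change -0.49, adjusted p = 0.0947), and so was the coreceptor Boc (-0.51, adjusted p = 0.288). The coreceptor Gas1 (-0.77, adjusted p = 0.124) and the repressor Gli3 (-0.69, adjusted p = 0.212) were below vehicle in 6 and 7 of 8. The quantity of protein and the sequence of Smo were not measured.

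**Figure D3:**
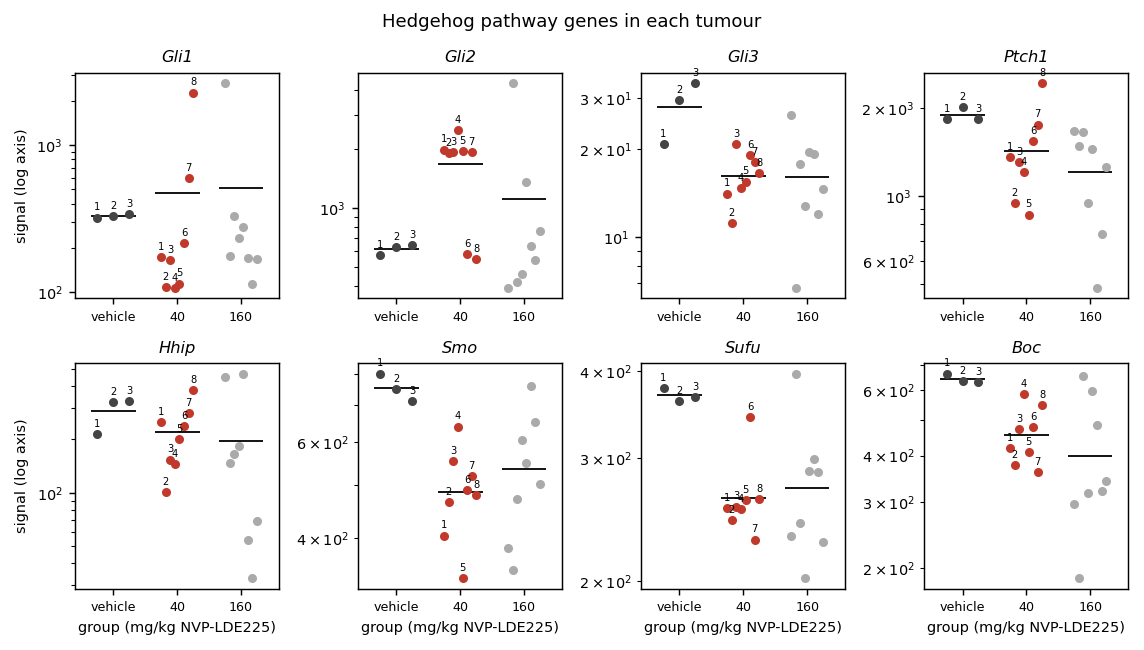
Signals of 8 Hedgehog pathway genes by group on log axes. Points are tumours, numbered in the vehicle and 40 mg/kg groups, and lines are group means. Smo, Sufu and Boc have all 8 tumours at 40 mg/kg below vehicle, Gli1 has tumours 7 and 8 above and 6 below, and Gli2 has 6 tumours between 1910 and 2502 and tumours 6 and 8 near vehicle.

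Gli2 fell into separate levels at this dose. Its signals were 572.8, 630.7 and 645.1 under vehicle. In 40 mg/kg tumours 1, 2, 3, 4, 5 and 7 they were 1984, 1910, 1919, 2502, 1950 and 1934, and in tumours 6 and 8 they were 577.9 and 547.2. The first 6 values lie far above the vehicle signals, and the others lie within or just below the vehicle range. The log2 change over all 8 was 1.25 (SE 0.58, limma adjusted p = 0.238). At 160 mg/kg the median was 589.9 and only tumours 2 and 5 exceeded 1000, with 4326 and 1348.

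Genes that lie beside Gli2 on chromosome 1 were examined for the same split, a choice made after these values were seen. In the gene order of the GRCm38.p6 table the 15 nearest genes on each side with a mean signal of at least 100 were taken, 30 in all. The number of these neighbours above all vehicle tumours was 27, 24, 27, 27, 30 and 27 in tumours 1, 2, 3, 4, 5 and 7, and 11 and 12 in tumours 6 and 8. Of all 8064 genes with such a mean signal, between 27.5% and 32.6% lay above all vehicle tumours in any 1 of the 8 tumours. The median log2 difference of the neighbours from the vehicle mean was 0.86, 1.15, 0.63, 1.51, 2.23 and 1.08 in tumours 1, 2, 3, 4, 5 and 7, and -0.04 and 0.05 in tumours 6 and 8. Tumour 5 stood out most on the side of Vps4b and Relch, where Relch had 3920 against 1412 or less in the other treated tumours and 582 or less under vehicle. At 160 mg/kg tumour 5 had 29 of the 30 neighbours above vehicle with a median of 1.40, while tumour 2, which had the highest Gli2 signal of all, had 7 with a median of -0.19. Tumour 8 at that dose had 20 with a median of 0.44, and the other 5 had between 8 and 13.

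Among the neighbours, Clasp1, a microtubule plus-end protein next to Gli2 in this order, had signals of 980, 908.4 and 808.7 under vehicle, from 2818 to 4038 in tumours 1 to 5 and 7, and 1207 and 977.7 in tumours 6 and 8. It was the single neighbour that rose in the test (log2 change 1.50, SE 0.35, limma adjusted p = 0.0287), and that call was lost without any 1 of the vehicle tumours or of treated tumours 2, 5 or 7. Insig2, which holds back sterol synthesis, had 1285, 883, 1040, 1365 and 1124 in tumours 2, 3, 4, 5 and 7, with 432.7 in tumour 1 and 303.3 and 364.4 in tumours 6 and 8, against 274.4 or less under vehicle (log2 change 1.59, adjusted p = 0.0735). Phlpp1, a phosphatase of the kinase Akt, ran from 241.5 in tumour 8 to 1196 in tumour 5 against 198.4 to 234.4 (1.05, adjusted p = 0.0967). Over the 30 neighbours 28 were higher, with a median log2 change of 0.87 at 40 mg/kg and 0.30 at 160 mg/kg. For the direct difference between doses, 20 of the 30 had an unadjusted p under 0.05 against 7.42% of all genes, and 0 passed after adjustment over all probe sets. Neighbours were chosen by place, share the same tumours and are not independent of each other. DNA copy number was not measured here.

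**Figure D4:**
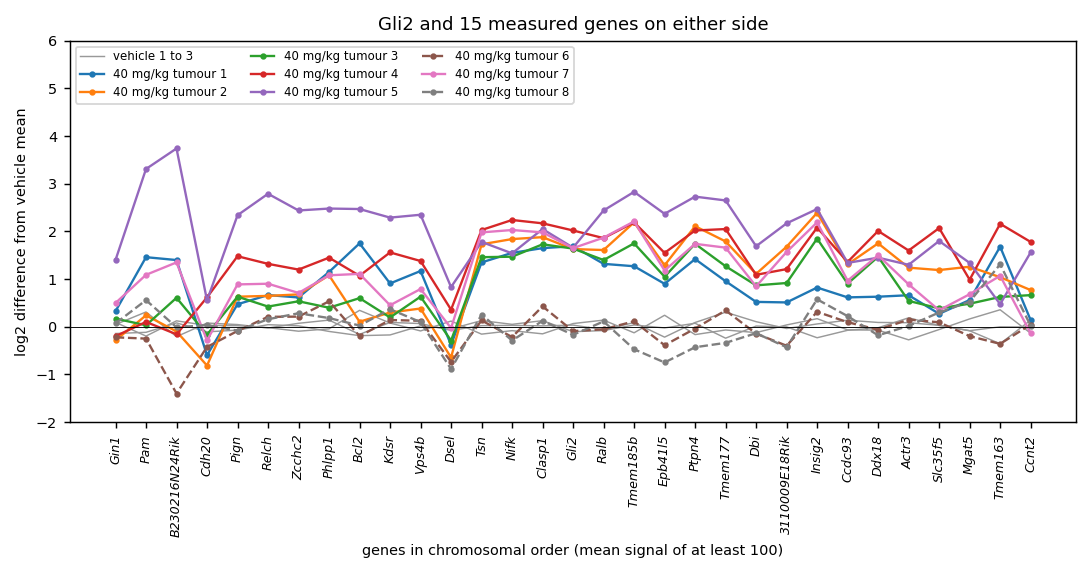
Log2 difference from the vehicle mean for Gli2 and the 30 measured neighbours in chromosomal order. Each coloured line is a tumour at 40 mg/kg (tumours 6 and 8 are dashed), and grey lines are the vehicle tumours. Tumours 1 to 5 and 7 lie above vehicle for most of the stretch, with medians from 0.63 to 2.23, and tumours 6 and 8 stay near it.

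Tumours 6 and 8, with Gli2 near vehicle, had the highest signals at this dose of Ifit1, Oasl1, Oasl2, Gbp7, Ifi35, Ifitm3 and Psmb10, and the highest Gli1 signals were in tumours 8, 7 and 6. Tumours 4 and 5, which had high Gli2 signals, had 2 of the 3 lowest Gli1 signals (106 and 113.8). Tumour 7 also had a high Gli2 signal (1934), yet its Gli1 signal of 598.2 was above every vehicle tumour. Tumour 6, with Gli2 at 577.9, had a Gli1 signal of 214.7, below every vehicle tumour. Since this way of sorting tumours came from the values themselves, no test is given.

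**Figure D5:**
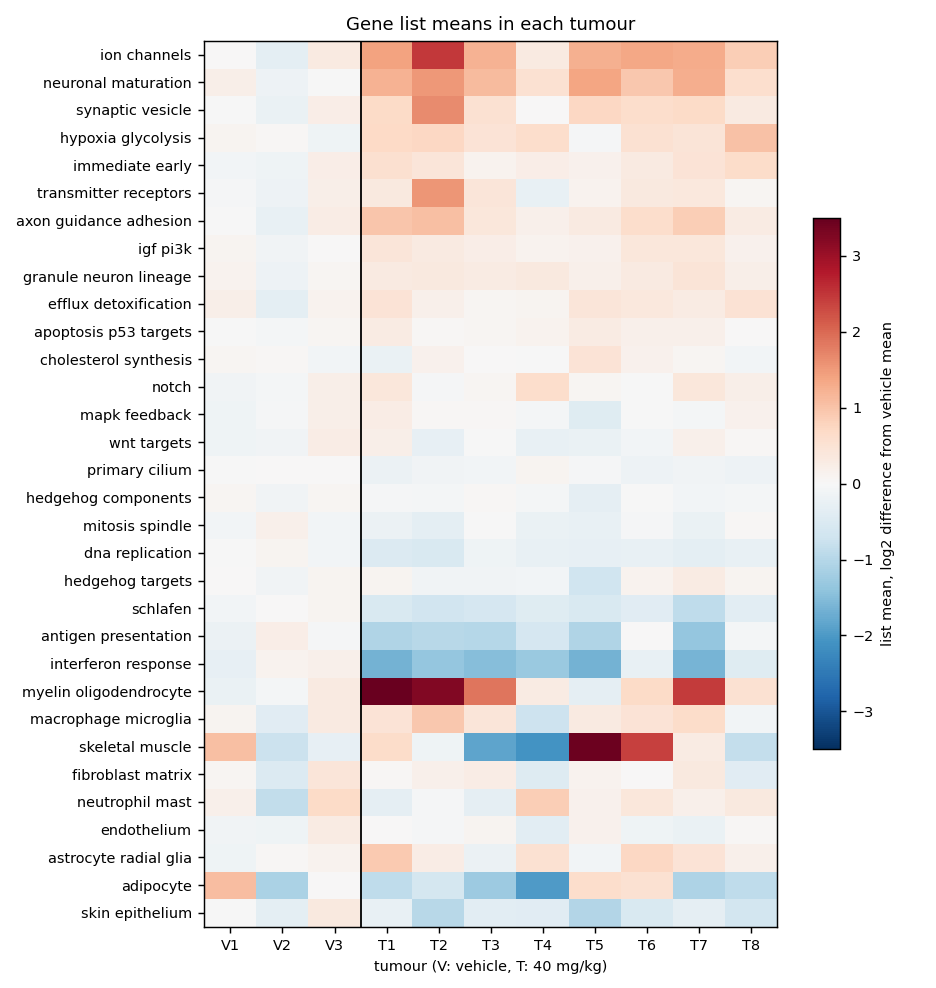
Mean log2 difference from the vehicle mean for each gene list in the 3 vehicle tumours (V) and the 8 tumours at 40 mg/kg (T). Red is higher and blue is lower than the vehicle mean. Interferon response is lower by 1.29 to 1.65 in tumours 1 to 5 and 7 and close to vehicle in 6 and 8, the myelin list is highest in tumours 1, 2, 3 and 7, and skeletal muscle in tumours 5 and 6.

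No gene of the DNA replication list was called by limma, yet all 33 measured members were lower, 10 of them with 8 of 8 treated tumours under vehicle (30.3%, against 6.29% of all genes), and the median log2 change was -0.28. The replicative helicase subunit Mcm3 had 1182, 1288 and 1154 under vehicle and 736.5 to 1020 at 40 mg/kg (log2 change -0.44, adjusted p = 0.0907). The cyclin Ccne2 had -0.63 (adjusted p = 0.0777) and the thymidine kinase Tk1 had -0.65 (adjusted p = 0.0994), both below vehicle in 8 of 8. Mitotic genes had a median of -0.16 with 22 of 29 lower and 0 called by limma. The spindle motor Kif11 was below vehicle in 8 of 8 (-0.51, adjusted p = 0.0997), and Cenpf ranged from 387.8 in tumour 5 to 1195 in tumour 8. Hypoxia and glycolysis genes went the other way, with 29 of 30 higher, a median of 0.43 and 0 called by limma. Of all genes 43.8% were higher, and 5.05% had all 8 treated tumours above vehicle, against 16.7% of this list. The prolyl hydroxylase P4ha2 (1.80, adjusted p = 0.0787), the aldolase Aldoa (0.86, adjusted p = 0.0973) and Ankrd37 (0.93, adjusted p = 0.110) were above vehicle in 8 of 8. List means of these genes ran from -0.04 in tumour 5 to 1.02 in tumour 8.

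Other signalling lists held few calls. Of all genes 1.71% rose, 0.847% fell and 6.29% had all 8 treated tumours under vehicle, so 1 call in such a list is little to go by. In the IGF and PI3K list Grb14 was the 1 member called of 37, with a median of 0.12. Igf2, a growth factor, ran from 58.7 in tumour 5 to 2521 in tumour 6 against 136.2 to 174.3 under vehicle and was above vehicle in 7 of 8 (log2 change 1.42, SE 0.91, adjusted p = 0.402). Igf1r had -0.47 (adjusted p = 0.360), Pik3r1 0.28 (adjusted p = 0.428) and the transcription factor Foxo1 -0.80, below vehicle in 8 of 8 (adjusted p = 0.0885). Dtx1, a regulator of Notch, rose by 0.94 (limma adjusted p = 0.0366) as the 1 call among 23 Notch genes (median -0.01), and Gadd45a, a growth arrest gene, rose by 1.52 (limma adjusted p = 0.0206) as the 1 call among 27 p53 target and apoptosis genes (median 0.03). Both calls were lost without any 1 of the vehicle tumours, and that of Dtx1 without treated tumours 1, 2, 3 or 7. The death promoter Bcl2l11 had -0.84 (adjusted p = 0.0623). Immediate early genes (0 of 20 called by limma, median 0.34), MAPK feedback genes (0 of 18, -0.03), Wnt targets (0 of 16, -0.03), cholesterol synthesis genes (0 of 22, 0.02) and primary cilium genes (0 of 26, -0.05) had none called. With array medians over all probe sets subtracted the MAPK, Wnt and Notch medians turned sign, to 0.01, 0.01 and 0.03. Of the drug efflux and detoxification list Cyp1b1 was the 1 call among 19 (median 0.04), and the efflux pump Abcb1b had -0.84 (adjusted p = 0.161).

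Host tissue varied between the treated tumours. The muscle genes Acta1, Myl1 and Tnnc2 reached 4524, 2559 and 2952 in tumour 5 and 2993, 3519 and 2435 in tumour 6, against at most 950, 371.4 and 499.5 under vehicle, and were as low as 35.1, 15.4 and 5.6 in tumour 4. Vip, a neuropeptide, was 244.5 and 1242 in tumours 7 and 8, which also have the highest Gli1 signals, and at most 14.2 in the other treated tumours. In the endothelial, fibroblast, adipocyte and skin lists 0 genes were called by limma, with medians of -0.07, 0.06, -0.66 and -0.66. The 2 measured red cell genes had 0 calls as well (median 0.06), with Alas2 at 1375 in tumour 8. Of all genes 1.71% rose, and of 8 neutrophil and mast cell genes 1 was called (median 0.02). This was Kit, which marks mast cells and also some neural precursors and rose by 1.24 (limma adjusted p = 0.0316), while the mast cell enzyme Cpa3 was between 0.6 and 28.1. Its call was lost without any 1 of the vehicle tumours or treated tumours 1, 5 or 7.

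The 2 doses were compared directly to find what is particular to 40 mg/kg. Both comparisons with vehicle share the same 3 vehicle tumours, so their values are given side by side and only the direct difference is tested. No probe set of 31143 was called between 40 and 160 mg/kg (limma, lowest adjusted p = 0.640), and 2122 (6.81%) had an unadjusted p under 0.05. Against vehicle 661 genes (4.91%) were called at 160 mg/kg and 344 (2.56%) at 40 mg/kg. For the called genes the 95% interval of the difference between doses reached a median of 0.34 to each side on the log2 scale. The values of some main rises were close, with log2 changes of 3.38 and 3.29 for Cntn2 (difference 0.09, 95% interval -0.53 to 0.72) and 3.09 and 3.18 for Snap91 (difference -0.09, interval -0.74 to 0.55). Others were larger at 40 mg/kg by value. Cldn11 had 3.10 and 2.14 (difference 0.96, interval -0.12 to 2.04, limma adjusted p = 0.759). Cyp1b1 had 2.46 and 1.545 (difference 0.92, interval -0.01 to 1.84, limma adjusted p = 0.731). Nalcn had 3.16 and 2.34 (difference 0.82, interval 0.07 to 1.57, adjusted p = 0.696), and Slit1 had 2.05 and 1.24 (difference 0.81, interval 0.22 to 1.40, adjusted p = 0.674). The falls of interferon genes were smaller at 40 mg/kg by value. Ifit1 had -2.39 and -3.32 (difference 0.93, interval 0.05 to 1.82, adjusted p = 0.718), Ifi35 -1.60 and -2.48 (difference 0.88, interval 0.36 to 1.40, adjusted p = 0.640) and Rtp4 -1.46 and -2.29 (difference 0.84, interval 0.32 to 1.35, adjusted p = 0.644). The median over the interferon list was -1.16 at 40 and -1.87 at 160 mg/kg. At 160 mg/kg Ifit1 ran from 18.8 to 177, so the 2 high values of tumours 6 and 8 at 40 mg/kg lie outside the range of the higher dose. Clasp1 had 1.50 and 0.55 (difference 0.95, interval 0.41 to 1.49, adjusted p = 0.640) and Gli2 1.25 and 0.31 (difference 0.95, interval 0.06 to 1.83, adjusted p = 0.711).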

How the data were processed

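Total RNA from 19 flash-frozen tumours was hybridized to Affymetrix arrays. The deposited values are linear signal intensities that the authors made with MAS5, per the submitters' processing notes. Scaling target and scan batches are not given in the sources used here, so no batch was tested. Each array had a mean of 150 once 2% of its values were trimmed from either end. The series text names the 430A 2.0 array, whereas the 45101 probe sets match the full Mouse 430 2.0 platform table, which gave the gene names. Without 64 controls, 34945 probe sets had 1 symbol, 932 several and 9160 none, and only the first kind named genes. Entrez identifiers matched 34741 of them to the GRCm38.p6 table.

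Tests used log2 of signal plus 2.5 (the 10th percentile of all values), a scale that understates changes of dim genes. A probe set was kept if its signal exceeded the 40th percentile in at least 3 arrays (31143, for 13454 genes). limma 3.58.1 (R 4.3.3; lmFit, eBayes with trend) fitted 3 group means with 16 residual degrees of freedom. Tests are two-sided with Benjamini-Hochberg adjustment over all kept probe sets, called at 0.05. A gene is represented by its kept probe set with the highest mean. The fit was tested on simulated data. The number of arrays, with 3 under vehicle, limits the precision.

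The comparison, the 34 gene lists and the naming rule were chosen with earlier results of these data known. The rule named the 12 largest called rises with a vehicle mean of at least 10, the 12 largest called falls with a 40 mg/kg mean of at least 10, 18 Hedgehog and growth genes, up to 4 members of each list with the smallest p, the 5 smallest p-values and the 8 most variable genes at 40 mg/kg. Other called list members, neighbours of Gli2 and further myelin and muscle genes were named after their values were seen. Alternatives were other normalizations, pseudocounts and filters, no variance trend, array weights, only the groups being compared, the mean of all probe sets of a gene, a replicate block and leaving out each array. Trp53 was not analysed here.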

Additional observations from a re-analysis of the deposited data

Results flagged for a closer look

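A fixed set of 123 genes was searched, which leaves out some genes named in the text and holds some that are not. Among the 8 treated tumours a highest or lowest signal that stood apart was sought. It was measured as its gap to the nearest other tumour divided by the range of the group. The critical value for 8 samples is 0.526, and chance alone passes it in about 1 of 20 groups of normal values. Some of these genes were chosen by their values and the share over all genes was not computed. That rate is therefore no reference for the number found. In 13 genes a tumour passed. The causes were not tested.

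Tumour 6 stood apart in 3 genes. It was lowest for Nalcn (127.1, next 356.6; ratio 0.544) and for the growth factor receptor Pdgfra (444.6, next 942.8; 0.624), and highest for Sufu (343.4, next 262.2; 0.668). Tumour 4 was lowest for the efflux pump Abcb1b (14.4, next 41.1; 0.627) and the endothelial cadherin Cdh5 (19.2, next 35.9; 0.531), and highest for the ciliary transport gene Ift140 (345.3, next 258.5; 0.656) and the matrix enzyme Loxl1 (548.6, next 374.9; 0.56). Tumour 5 was lowest for Atoh1 (352.6, next 799.7; 0.592) and highest for Dcx (1786.8, next 1074.3; 0.594). Tumour 2 was highest for Dnm1 (595.6, next 140.5; 0.622) and lowest for Tk1 (147.8, next 208.1; 0.562). Tumour 7 was highest for Fat4 (45.8, next 22.5; 0.61) and tumour 8 lowest for Slc17a6 (97.8, next 303.9; 0.586).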

How the results depend on the processing

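For 40 mg/kg against vehicle the count of called probe sets was 668. It was 7452 with array weights, 1553 with the compared groups alone and 324 with the replicate block, where same-numbered arrays had deviations that correlated between -0.128 and 0.0904 and do not pair the samples. Leaving out 1 array gave from 120 to 841. Under the other settings it stayed between 489 and 965. Between 40 and 160 mg/kg the count of 0 was 1 without the variance trend, and it stayed at 0 with each of the 16 treated arrays left out in turn. The same set of 123 genes was followed through these settings, and 51 of them were called in the main fit. Of these 51, 14 were called in all 11 fits without 1 array and 23 in none of the 3 without a vehicle tumour. None of the 51 changed sign under any setting run. Called genes outside the set, such as Irf9, Rtn1, Map2, Celf4, Kcnk1, Cacna1c, Cacna2d1, Nfasc and Fat2, were not followed singly. Over the settings run the medians of the interferon and neuronal maturation lists ran from -1.33 to -1.04 and from 0.93 to 1.12. Dim genes are limited by signal near the pseudocount, and the causes of these differences were not tested.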
